A study of Mus musculus with 6 samples.

Results

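The genes described here are 10 clock output genes of mouse liver: the PAR bZIP transcription factors Dbp, Tef and Hlf, their counterpart Nfil3, the repressors Ciart, Bhlhe40 and Bhlhe41, and the effectors Usp2, Noct and Wee1. They were taken by gene symbol from a table of 17441 genes, and all 10 were found and all 10 were tested. The set was chosen by what these genes are known for and with their values in the same comparison already known, so those values are a description of the livers and no test of the set. Liver RNA was sequenced from 6 mice, 1 library each, in 2 groups of 3. The first group was wild type (WT). The second carried a tamoxifen-inducible deletion of Nek7 in the whole body and is labelled iKO. Nek7 encodes a mitotic kinase of the NIMA-related family. All 6 mice, the WT mice included, had received tamoxifen 10 days earlier. Strain, age, sex, the driver of the inducible deletion and the hour of collection are not stated in the labels.

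The circadian clock of the liver is a feedback loop in which the activators CLOCK and BMAL1 (encoded by Arntl) bind E-boxes and switch on genes of their own repressors. The same E-boxes drive output genes, among them Dbp, Tef and Hlf, whose proteins bind D-box sites as activators. NFIL3, also called E4BP4, binds D-boxes as a repressor, and its gene is held down by REV-ERB proteins, so it normally peaks when Dbp is low. CIART, also called CHRONO, and the basic helix-loop-helix proteins BHLHE40 (DEC1) and BHLHE41 (DEC2) repress CLOCK and BMAL1. USP2 is a deubiquitinating enzyme, Nocturnin (Noct) is a rhythmic protein related to deadenylases that acts on NADPH, and WEE1 is the kinase that holds CDK1 inactive before mitosis.

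The stretches of promoter that hold the E-box are shown first, because the E-box is the element that CLOCK and BMAL1 bind. Promoter windows of 300 bases, 250 before the start and 50 from it on, were taken from RefSeq annotation on GRCm38.p6 for 8 of the 10 genes, in 9 windows. Entries were not used for Bhlhe40 and Wee1. Sequences run 5′ to 3′ on the strand of the gene and the capitals mark CACGTG.
Ciart, chr3:95882229-95882384, minus strand: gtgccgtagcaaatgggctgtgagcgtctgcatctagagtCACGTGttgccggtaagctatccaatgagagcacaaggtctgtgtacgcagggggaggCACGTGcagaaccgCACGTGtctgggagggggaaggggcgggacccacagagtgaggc
Bhlhe41, chr6:145865528-145865613, minus strand: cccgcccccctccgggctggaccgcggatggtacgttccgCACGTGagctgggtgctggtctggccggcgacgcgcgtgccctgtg
Tef, first start, chr15:81802506-81802591, plus strand: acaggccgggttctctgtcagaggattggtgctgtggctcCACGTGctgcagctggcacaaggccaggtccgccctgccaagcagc
Tef, second start, chr15:81811236-81811321, plus strand: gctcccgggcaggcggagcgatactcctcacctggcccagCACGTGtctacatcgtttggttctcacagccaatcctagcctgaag

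CACGTG, which reads the same on both strands, was found in windows of 3 genes. Ciart had it at -116, -58 and -44 from the start, Bhlhe41 at -153, and Tef at -127 and -138 in its 2 windows. Of all 32851 promoter windows of the same length 7.15% held it, and of the 13472 windows of tested genes 9.55% did. The variant CACGTT, searched on both strands, was in none of the 9 windows, and neither was the D-box, searched as TTATGTAA or TTACGTAA on both strands. Of all windows 4.68% held CACGTT and 1.06% held a D-box. The ROR and REV-ERB half-site AGGTCA was in the Nfil3 window at -12 on the opposite strand, and 16.26% of all windows held it. The cyclic AMP response element TGACGTCA was in the Hlf window at -9, and 1.79% of all windows held it. A match says only that the letters are in the window, and known E-boxes and D-boxes of these genes outside such short windows were not searched.

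The DNA-binding part of the bZIP proteins is the next sequence to compare, since Dbp, Tef and Hlf share their binding site with the repressor Nfil3. The 63 coding bases around the basic region are given from GENCODE vM21 on GRCm38, with capitals for bases that differ from Dbp.
Dbp, exon 4, chr7:45709677-45709739, plus strand: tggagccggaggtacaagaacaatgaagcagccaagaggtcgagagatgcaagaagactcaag
Tef, exon 4, chr15:81823478-81823540, plus strand: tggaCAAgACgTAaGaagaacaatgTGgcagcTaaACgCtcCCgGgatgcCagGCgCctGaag
Hlf, exon 4, chr11:90340900-90340962, minus strand: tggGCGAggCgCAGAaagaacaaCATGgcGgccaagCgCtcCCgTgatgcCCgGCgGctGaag
Nfil3, exon 2, chr13:52968576-52968638, minus strand: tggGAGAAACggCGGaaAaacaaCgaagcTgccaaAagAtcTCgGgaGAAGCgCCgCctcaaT

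Tef matched Dbp at 41 of the 63 bases, Hlf at 38 and Nfil3 at 36. Over these 21 codons Tef and Hlf each differed from Dbp in 3 residues, and Nfil3 in 6. Tef and Hlf matched each other at 49 bases. For the repressor pair, the stretch shown covers the start of the helix-loop-helix, with capitals for bases that differ from Bhlhe40.
Bhlhe40, exon 3, chr6:108661517-108661579, plus strand: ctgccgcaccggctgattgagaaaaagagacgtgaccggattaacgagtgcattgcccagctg
Bhlhe41, exon 3, chr6:145864609-145864671, minus strand: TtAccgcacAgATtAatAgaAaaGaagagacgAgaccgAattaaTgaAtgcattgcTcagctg
These 2 genes matched at 49 of 63 bases, and none of the codons changed its residue.

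Each library held between 18139507 and 19911983 expected counts, and levels are given below as TMM-normalized CPM (counts scaled to library size) for comparisons between livers and as the authors' TPM (transcript abundance scaled for length and library) for comparisons between genes. Of 13160 genes tested, 15.4% passed the threshold of an adjusted p below 0.05 in edgeR's quasi-likelihood test, 7.31% as higher in iKO and 8.07% as lower, and 39.0% had groups that did not overlap. Nek7 itself was 55.5, 40.5 and 36.3 CPM in WT 1, 2 and 3 and 50.2, 32.8 and 31.0 CPM in iKO 1, 2 and 3. In CPM the groups overlapped, and the log2 difference was -0.22 (SE 0.23, adjusted p = 0.541, edgeR). On the TPM scale they did not overlap, with 21.31, 20.4 and 15.68 TPM in WT and 13.75, 13.11 and 13.04 TPM in iKO. The CPM of Nek7 thus does not set the groups apart, and iKO below stands for the livers labelled iKO. Which part of the gene was deleted is not named in the labels. Reads of the Y-linked genes Ddx3y and Kdm5d were at 0 in WT 2 and WT 3, where a 0 allows up to 3 counts, and numbered 573.3 to 1113 in the other 4 libraries. Eif2s3y had 5.99 and 4.0 expected counts in WT 2 and WT 3 and at least 211.8 elsewhere, while Uty had 401.4 and 235.0 there and 263.6 to 621.4 elsewhere. Libraries with Y-linked reads are below those with reads of Ddx3y and Kdm5d. WT 1 is the only WT liver among them, so a comparison of WT 1 with the iKO livers, and a fit with a term for such reads, are given beside the results. The first has 1 library in its WT arm, takes its spread from the 3 iKO livers alone and assumes that WT livers vary as much. P-values measure only the spread between these samples.

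Hepatocyte markers were high in every liver, with a summed level of 111600 to 159800 TPM in WT and 100800 to 127700 TPM in iKO, and none of the 10 was at 0; 2 of them passed as higher. Of the stellate cell and fibroblast markers 7 of 13 passed as lower (summed level 349 to 690 TPM in WT, 184 to 194 TPM in iKO), and of the Kupffer cell markers 6 of 10 did (441 to 956 TPM, 303 to 436 TPM). Of the sinusoidal endothelial markers 3 of 9 passed as lower (100 to 215 TPM, 41.6 to 99.0 TPM) and of the neutrophil markers 5 of 9 (76.6 to 355 TPM, 40.4 to 142 TPM). WT 1, the only WT liver with Y-linked reads, had the lowest WT sum for stellate, Kupffer, endothelial and neutrophil markers. Its neutrophil sum lay inside the iKO range, and its Kupffer and endothelial sums lay just above the highest iKO liver. The fits on Y-linked reads are not given for these markers. None of 9 tested lymphocyte markers (9.25 to 17.7 TPM, 8.91 to 14.1 TPM) or 6 cholangiocyte markers (128 to 296 TPM, 54.7 to 502 TPM) passed, and 2 of 3 tested adipocyte markers passed as higher (12.8 to 13.4 TPM, 14.4 to 23.1 TPM). No marker of these lists was at 0 in all libraries of a group. Their part in the values of the output genes was not tested. In whole liver, fewer cells of a type and less RNA per cell cannot be told apart.

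Among the PAR bZIP activators, Dbp and Tef were higher in all 3 iKO livers and Hlf was not separated between the groups. Dbp (gene ID 13170) was 0.797, 1.24 and 2.27 CPM in WT 1, 2 and 3 and 99.8, 141 and 144 CPM in iKO 1, 2 and 3. The groups were far apart, with a log2 difference of 6.47 (SE 0.37), an 88.4-fold higher mean in iKO, the largest positive difference of all tested genes. Dbp rested on 14.93 to 46.96 expected counts in WT and 1498 to 2772 in iKO. None of its 6 expected counts was whole, so some reads were shared by RSEM with another transcript.

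Tef (21685), the thyrotroph embryonic factor, was 26.9, 33.2 and 45.3 CPM in the WT livers against 111, 156 and 169 CPM in iKO. The lowest iKO liver was above the highest WT liver, and the log2 difference was 2.05 (SE 0.24). Hlf (217082), the hepatic leukaemia factor, was 34.2, 34.0 and 34.5 CPM in the WT livers against 32.9, 40.6 and 51.1 CPM in iKO. The WT livers were nearly equal, with a coefficient of variation of 0.675%, while iKO 1 lay below them and iKO 2 and iKO 3 above, and the log2 difference was 0.28 (SE 0.18). The 3 activators thus had log2 differences from 0.28 to 6.47 in the same libraries.

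**Figure D1:**
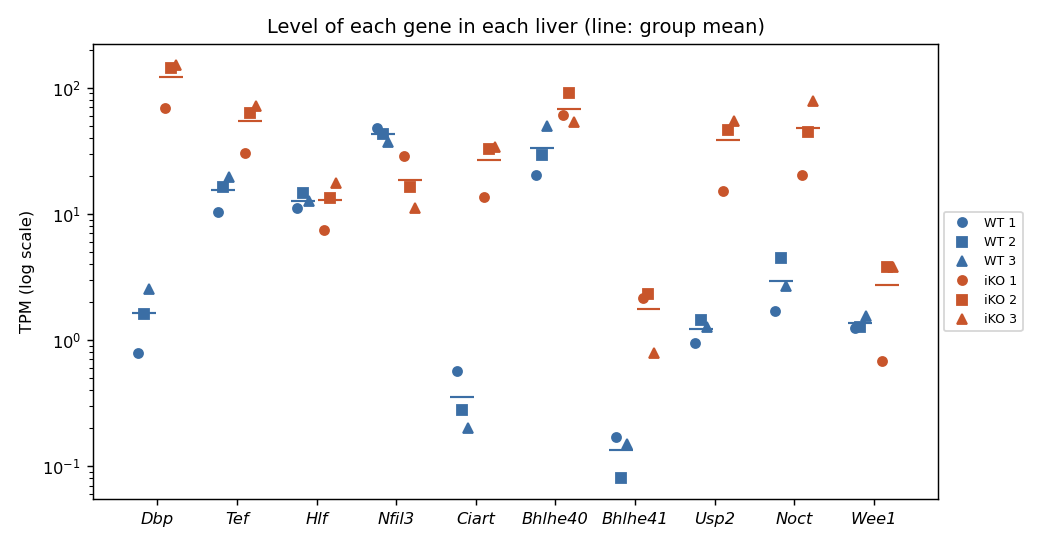
Level of each of the 10 genes in each liver, in TPM on a log axis, with WT in blue, iKO in orange, the replicate number by marker shape and a line at the group mean. Dbp, Ciart and Usp2 have the widest gaps between the groups, and Hlf and Wee1 overlap.

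Nfil3, the D-box repressor, was the only one of the 10 with a lower mean in iKO. Nfil3 (18030) was 60.0, 41.4 and 40.6 CPM in the WT livers against 51.2, 19.8 and 13.0 CPM in iKO. iKO 1 lay between the WT livers while iKO 2 and iKO 3 lay below all of them, and the log2 difference was -0.76 (SE 0.51). On the TPM scale the groups did not overlap, with 48.1, 43.2 and 37.2 TPM in WT and 28.5, 16.2 and 11.1 TPM in iKO. Without iKO 1 the log2 difference was -1.52 and passed the threshold.

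The balance of activators to the repressor can be read from the TPM values, which are per length. Dbp, Tef and Hlf summed to 22.2, 32.5 and 34.6 TPM in WT and 107, 219 and 241 TPM in iKO. The ratio of that sum to Nfil3 was 0.461, 0.753 and 0.930 in WT and 3.76, 13.5 and 21.6 in iKO. The sum was therefore below Nfil3 in each WT liver and above it in each iKO liver. Dbp made up 3.56% to 7.25% of the sum in WT (mean 5.26% ± 1.86, SD, n = 3) and 63.2% to 65.3% in iKO (64.4% ± 1.06). The share of Tef was 46.6% to 56.4% in WT and 28.5% to 29.6% in iKO, and that of Hlf 36.4% to 49.8% in WT and 6.12% to 7.24% in iKO. Among the iKO livers the shares lay close together, while iKO 1 had lower levels of all 3 transcripts than iKO 2 and iKO 3.

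**Figure D2:**
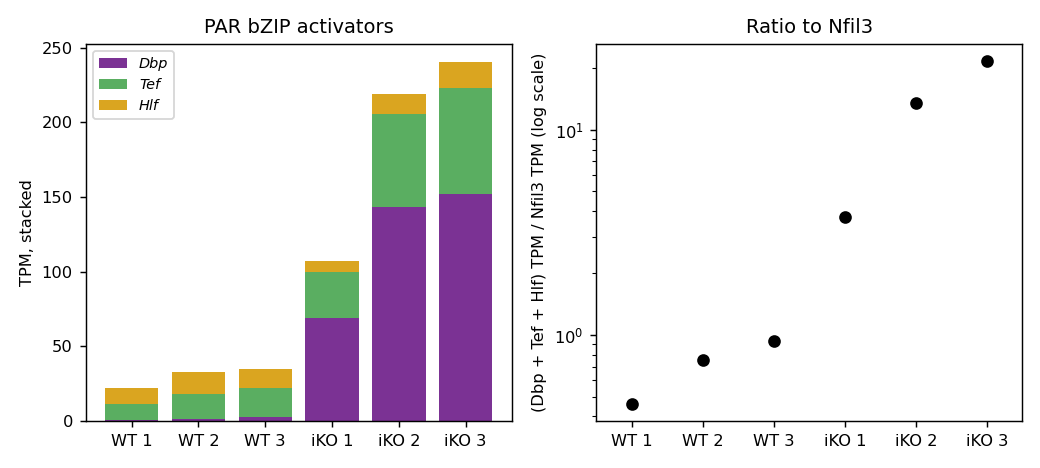
Left, TPM of Dbp, Tef and Hlf stacked as bars for each liver; right, the ratio of their sum to the TPM of Nfil3 in each liver, on a log axis. The sum is 22.2 to 34.6 TPM in WT and 107 to 241 TPM in iKO, and the ratio is below 1 in the 3 WT livers and above 1 in the 3 iKO livers.

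All 3 repressors of CLOCK and BMAL1 had higher levels in the iKO livers. Ciart (229599) was 0.637, 0.222 and 0.193 CPM in the WT livers against 18.1, 30.5 and 31.1 CPM in iKO. The WT values rested on 12, 5 and 4 counts and the iKO values on 271, 569 and 600, and the log2 difference was 6.26 (SE 0.41), the second highest of all tested genes. Bhlhe40 (20893) was 38.0, 41.5 and 83.2 CPM in the WT livers against 165, 167 and 95.0 CPM in iKO. WT 3 and iKO 3 came close to each other without overlapping, and the log2 difference was 1.39 (SE 0.34). Bhlhe40 was no longer past the threshold when WT 1, WT 2, iKO 1 or iKO 2 was left out, with the replicate block, or in either fit on Y-linked reads; the log2 difference over all alternatives was 1.19 to 1.91.

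Bhlhe41 (79362) was 0.637, 0.222 and 0.483 CPM in the WT livers against 11.3, 8.20 and 2.75 CPM in iKO. It rested on 12, 5 and 10 counts in WT and 170, 153 and 53 in iKO, and iKO 3 was the lowest of the 3. The log2 difference was 4.05 (SE 0.59), and it was no longer past the threshold in either fit on Y-linked reads. Per length, Bhlhe41 was the scarce member of the pair in every liver, at 0.275% to 0.838% of the summed TPM of Bhlhe40 and Bhlhe41 in WT and 1.46% to 3.42% in iKO.

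Usp2 and Noct were higher in all 3 iKO livers, and Wee1 in 2 of them. Usp2 (53376) was 1.97, 2.26 and 2.18 CPM in the WT livers against 43.2, 88.2 and 101 CPM in iKO. The WT livers were close together and all iKO livers were far above them, with a log2 difference of 5.18 (SE 0.34) and a 36.2-fold higher mean. Its expected count was whole in 1 of 6 libraries, so here too RSEM shared reads with another transcript. Noct (12457) was 2.50, 4.80 and 3.43 CPM in the WT livers against 41.1, 63.2 and 104 CPM in iKO, with no overlap and a log2 difference of 4.27 (SE 0.40). Wee1 (22390) was 2.60, 2.00 and 2.85 CPM in the WT livers against 1.93, 7.34 and 7.21 CPM in iKO. iKO 1 was below all WT livers while iKO 2 and iKO 3 were above all of them, and the log2 difference was 1.15 (SE 0.45). Without iKO 1 that difference was 1.55 and passed the threshold, and it also passed with DESeq2, at 1.16.

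**Figure D3:**
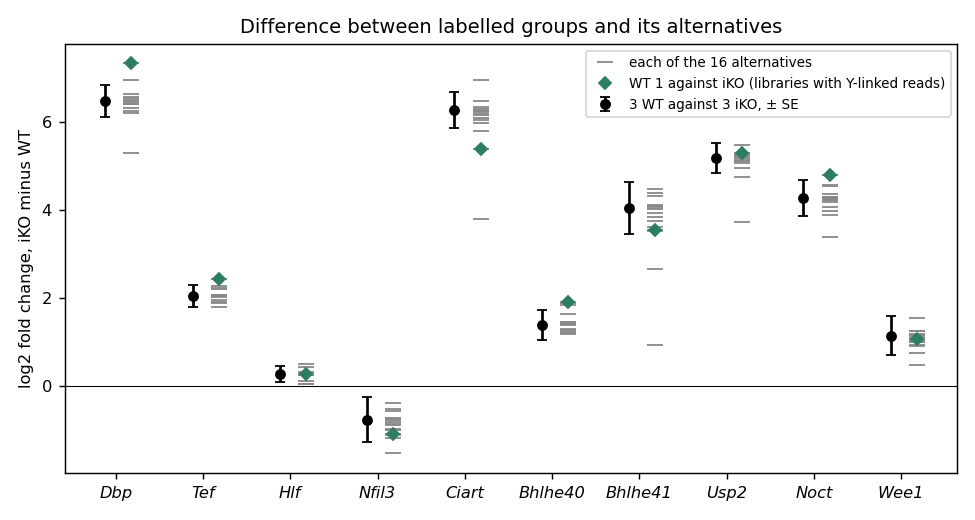
Log2 difference of each gene, iKO minus WT, with black points for all 6 livers and bars of 1 SE, grey dashes for each of 16 alternatives and green diamonds for WT 1 against the iKO livers. No gene changes sign, and the dash lowest for Ciart (3.80) and for Bhlhe41 (0.94) is the FPKM scale with a pseudocount of 1.

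Of the 10 genes 7 passed the threshold as higher, 0 as lower (also 0 at an unadjusted p below 0.05 and 0 with DESeq2), and 7 had groups that did not overlap; Hlf, Nfil3 and Wee1 were the 3 that did not pass. The median log2 difference was 3.05, beside -0.02 over all tested genes. As the genes were chosen with this comparison known, nothing is read from these counts beside the shares of 15.4% and 39.0% of all tested genes. In WT 1 against the iKO livers all 10 genes had the same sign as in the whole comparison and 5 passed the threshold, Dbp, Tef, Ciart, Usp2 and Noct. With 1 WT liver this says nothing of the spread among WT livers. There the log2 difference was 7.32 (SE 0.55) for Dbp, 5.37 (SE 0.51) for Ciart, 5.30 (SE 0.62) for Usp2, 4.79 (SE 0.64) for Noct and 2.44 (SE 0.41) for Tef.

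The genes differed in which iKO liver was lowest, and genes with the same lowest liver did not all share the order of the others. Dbp, Tef, Hlf, Ciart, Usp2, Noct and Wee1 were lowest in iKO 1, and Nfil3, Bhlhe40 and Bhlhe41 were lowest in iKO 3. No gene of the 10 was lowest in iKO 2. Of all tested genes 40.7% were lowest in iKO 1, 29.4% in iKO 2 and 29.9% in iKO 3, and iKO 1 also had the lowest TMM factor, 0.7803 against 0.9896 to 1.176 in the other 5 libraries. The counts of 7 and 3 were the same on the TPM scale. The hour at which each liver was taken is not in the labels, and its part in these values was not tested.

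**Figure D4:**
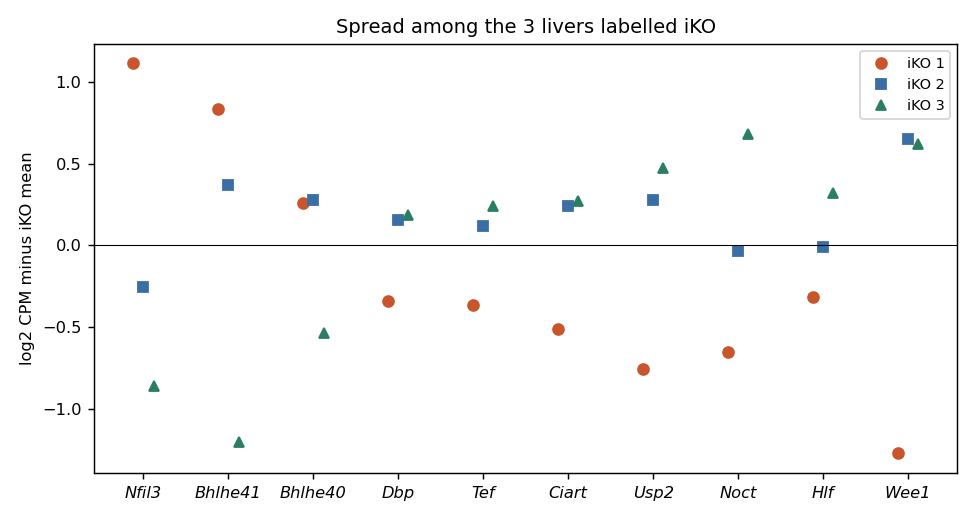
Log2 CPM of each gene in the 3 iKO livers minus its iKO mean. Nfil3, Bhlhe41 and Bhlhe40 are lowest in iKO 3, and the other 7 genes are lowest in iKO 1.

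Over the 6 livers, log2 CPM of Dbp correlated with that of Tef and Usp2 at r = 0.99, and Nfil3 ran opposite to Hlf at r = -0.95 and to Wee1 at r = -0.91. Hlf and Wee1 correlated at r = 0.89. These are descriptions over 6 libraries that include the group difference.

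In order of mean TPM, the WT livers had Nfil3 at the top with 42.9, then Bhlhe40 with 32.9, Tef with 15.4 and Hlf with 12.7. Noct (2.92), Dbp (1.64), Wee1 (1.36) and Usp2 (1.21) followed, then Ciart (0.350) and Bhlhe41 (0.133). Neighbours whose ranges did not overlap were Bhlhe40 and Tef, Hlf and Noct, Usp2 and Ciart, and Ciart and Bhlhe41. In iKO Dbp led with 121.5 TPM, followed by Bhlhe40 (68.2), Tef (54.8), Noct (47.6), Usp2 (38.5), Ciart (26.7), Nfil3 (18.6), Hlf (12.7), Wee1 (2.75) and Bhlhe41 (1.74). There the ranges of all neighbours overlapped except those of Hlf and Wee1. Hlf had a mean of 12.7 TPM in both groups, though its mean CPM was 34.2 in WT and 41.6 in iKO. Nfil3 was in place 1 in WT and in place 7 in iKO.

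Of 17 tested core clock genes, which lie upstream of these outputs, 4 passed as higher and 4 as lower, with a median log2 difference of -0.16. The activator gene Arntl was lower, at 31.3, 32.4 and 30.5 CPM in the WT livers against 3.86, 2.63 and 1.56 CPM in iKO (log2 difference -3.56, SE 0.28, adjusted p = 0.000271, edgeR). Npas2, which can take the place of CLOCK, was 13.6, 18.6 and 15.9 CPM in the WT livers against 1.47, 0.483 and 0.622 CPM in iKO (-4.26, SE 0.36). Of the repressor genes of the loop, the Period genes were higher and Cry1 was lower. Per1 was 3.66, 14.2 and 14.7 CPM in the WT livers against 77.5, 90.9 and 91.8 CPM in iKO (2.99, SE 0.49), Per3 rose by 2.89 (SE 0.36) and Per2 by 2.43 (SE 0.38) on the log2 scale. Per1 was no longer past the threshold without iKO 1 (adjusted p = 0.0547, edgeR). Cry1 was 13.1, 13.0 and 9.18 CPM in the WT livers against 3.06, 4.61 and 7.63 CPM in iKO (-1.19, SE 0.31, adjusted p = 0.0341, edgeR), and it did not pass without WT 1, WT 2, iKO 1 or iKO 2. Cry2 did not pass (0.15, SE 0.17). Fbxl21 was lower (-1.22, SE 0.31), and it did not pass without WT 2, WT 3, iKO 1 or iKO 2. Nr1d1, which encodes REV-ERB alpha, was 60.0, 84.4 and 80.8 CPM in the WT livers against 251, 202 and 55.9 CPM in iKO. Its level in iKO 3 was below all WT livers, and Nr1d1 did not pass (1.18, SE 0.51, adjusted p = 0.159, edgeR). These values are of Nr1d1 alone and say nothing of the other REV-ERB gene. Without iKO 1 the list had 5 genes past the threshold, and with WT 1 alone against iKO it had 3, Arntl, Npas2 and Per1.

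Of the 19 tested genes known in mouse liver as targets of PAR bZIP factors, 7 passed as higher and 0 as lower in edgeR (1 lower at an unadjusted p below 0.05, and 1 with DESeq2), with a median log2 difference of 0.15; 3 of the 7 are the Period genes. Alas1, the rate-limiting enzyme of haem synthesis, was 81.9, 116 and 87.5 CPM in the WT livers against 1743, 1374 and 1042 CPM in iKO (3.87, SE 0.29, adjusted p = 0.000191, edgeR). Por, the electron donor of microsomal cytochrome P450 enzymes, was 213, 326 and 306 CPM in the WT livers against 881, 887 and 713 CPM in iKO (1.55, SE 0.24). Cyp7a1, the rate-limiting enzyme of bile acid synthesis, was 37.0, 47.6 and 79.3 CPM in the WT livers against 155, 274 and 159 CPM in iKO (1.84, SE 0.33). With the term for Y-linked reads Alas1 (4.08) and Por (1.95) passed and Cyp7a1 (2.4) did not. In WT 1 against iKO the log2 difference was 4.09 for Alas1, 1.96 for Por and 2.41 for Cyp7a1. Cyp2a5 was higher as well (1.27, SE 0.32), but did not pass without WT 2, iKO 2 or iKO 3, and it shares reads with the near-identical Cyp2a4, so both are uncertain. Nr1i3, which encodes the xenobiotic receptor CAR, was at 92.4, 108.1 and 105.9 CPM in the WT livers against 73.5, 95.5 and 108.5 CPM in iKO (-0.14, SE 0.19). Ppara (0.28), Cyp4a10 (-0.34), Cyp4a14 (-0.44) and Cyp2b10 (-1.27) did not pass either. Without WT 1 the list had 11 genes past the threshold, 7 higher and 4 lower, and with WT 1 alone against iKO it had 3.

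Among 20 other rhythmic liver genes, 9 passed as higher and 4 as lower, with a median log2 difference of 0.94. Lpin1, a phosphatidate phosphatase and transcriptional coregulator, was 35.2, 37.9 and 80.8 CPM in the WT livers against 1184, 877.5 and 606.9 CPM in iKO (4.12, SE 0.41). Coq10b, which binds coenzyme Q, rose by 3.72 (SE 0.25) and Herpud1, of endoplasmic reticulum protein degradation, by 2.31 (SE 0.26). Tubb2a, a beta-tubulin, was 165.5, 174.3 and 270.9 CPM in the WT livers against 45.2, 27.4 and 31.3 CPM in iKO (-2.56, SE 0.27). The vasopressin receptor gene Avpr1a was lower (-1.44, SE 0.15), and Insig2 was lower (-1.21, SE 0.27) but did not pass without WT 2, iKO 2 or iKO 3. Of the 13 genes past the threshold 8 still passed with the term for Y-linked reads and 6 in WT 1 against iKO; Insig2 did not pass in the second.

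The remaining lists hold relatives of the output genes. Of 20 C/EBP and other bZIP genes 6 passed as higher and 0 as lower (also 0 at an unadjusted p below 0.05 and 0 with DESeq2; median 0.37), among them Cebpd (2.04, SE 0.31) and Cebpb (2.00, SE 0.26). Cebpb was 96.5, 70.8 and 81.3 CPM in the WT livers against 441, 321 and 233 CPM in iKO. With the term for Y-linked reads, and in WT 1 against iKO, 1 of the 6 passed, and neither Cebpb (adjusted p = 0.0797 and 0.112, edgeR) nor Cebpd (0.0998 and 0.173) did. Of the 7 tested HES, HEY and ID repressors, which share the helix-loop-helix with Bhlhe40, only Heyl passed, as lower (-1.62, SE 0.42), and not without WT 2, WT 3, iKO 1 or iKO 2. Of the 22 deadenylase genes, relatives or partners of Noct's family, 3 passed as higher and 2 as lower (median -0.01), with Btg3 at 1.53 and Cnot1, the scaffold of the CCR4-NOT complex, at -1.06. Btg3 did not pass without WT 2, WT 3, iKO 2 or iKO 3, and Cnot1 was the only one of the 5 that passed with each library left out. None of the 9 tested genes of the WEE1 and CDC25 switch passed in edgeR or DESeq2, and 1 had an unadjusted p below 0.05, as lower (median -0.24). Of 42 other ubiquitin-specific proteases 1 passed as higher, Usp36 (0.95), and 2 as lower, Usp12 (-0.82), which did not pass without WT 2, and Usp46 (-0.74), which did not pass with any 1 library left out. None of the genes past the threshold in the HES, HEY and ID, deadenylase and protease lists passed in either fit on Y-linked reads (Cnot1: adjusted p = 0.103 and 0.147, edgeR).

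**Figure D5:**
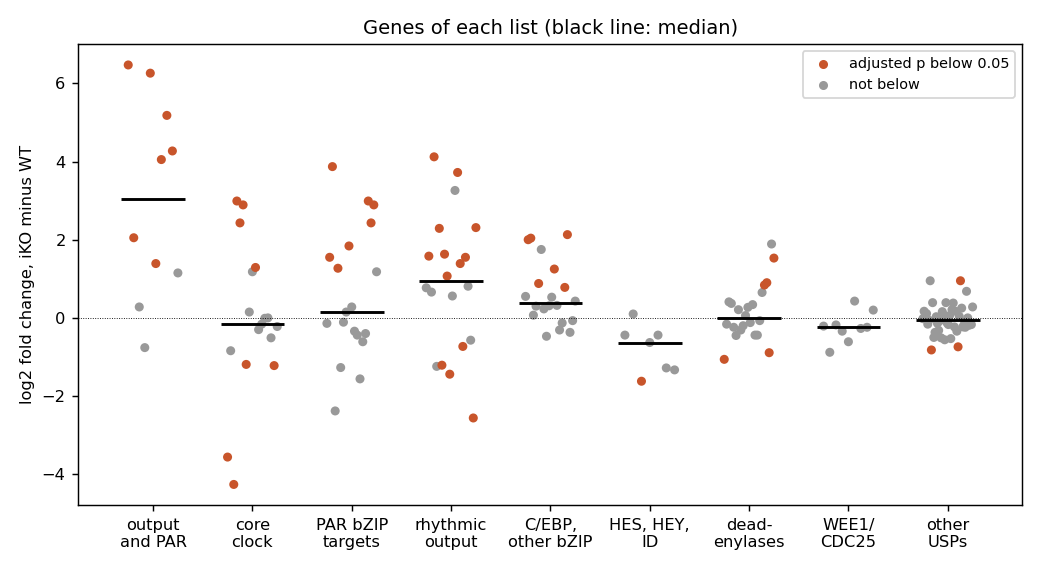
Log2 difference, iKO minus WT, of each tested gene of the 10 output genes and of 8 related lists, in orange where the adjusted p is below 0.05, with a black line at the median. Medians run from -0.63 for the HES, HEY and ID list to 3.05 for the 10 output genes.

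The genes whose log2 CPM was most like each output gene over the 6 livers were found among 13150 others. For Dbp these were Ppp1r13l and Isyna1 (r = 0.997 and 0.996), for Tef Prmt5 and Tmem266 (both 0.997), and for Ciart Cebpzos and Coq10b (both 0.999). For Usp2 they were Sap30 and Rbmxl1 (both 0.998), for Noct Myom1 and Taf1c (both 0.995), for Bhlhe40 Dap and Cgas (0.988 and 0.987) and for Bhlhe41 Hspa1b and Psmg4 (0.996 and 0.994). For the 3 that did not pass, they were Rtkn and Zfp219 for Hlf (0.997 and 0.988), Smagp and Gm52451 for Nfil3 (0.997 and 0.994), and Nek8 and Katnbl1 for Wee1 (0.999 and 0.995). These correlations include the group difference and do not measure its size. The log2 difference was 0.76 for Ppp1r13l and 2.12 for Isyna1, beside 6.47 for Dbp. It was 0.68 for Cebpzos and 3.72 for Coq10b, beside 6.26 for Ciart. Shared regulation was not tested. A correlation of at least 0.95 was reached by 242 genes for Ciart, 220 for Dbp and 201 for Usp2. For Bhlhe41 it was reached by 192, for Noct by 166 and for Tef by 141. Bhlhe40, which passed, had 38 such genes, the same number as Nfil3, while Hlf had 24 and Wee1 16.

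Of 24 neighbouring genes looked up on GRCm38.p6, 9 were tested, of which 2 passed as higher and 1 as lower. Sphk2, a sphingosine kinase gene that overlaps Dbp, was 71.9, 74.4 and 90.3 CPM in the WT livers against 57.6, 38.2 and 34.6 CPM in iKO, lower where Dbp was higher (-0.86, SE 0.22, adjusted p = 0.029, edgeR). Rpl18, 5264 bases from Dbp, was higher by 0.86, and Mrps21, 6986 bases from Ciart, by 0.87. Car11, 413 bases from Dbp (-0.40), Elf2, 1066 bases from Noct (0.34), and BC028528, 1688 bases from Ciart (-0.36), did not pass. No source used here says whether counting used strand, so reads of overlapping genes cannot be told apart. Untested noncoding genes overlap Ciart, Bhlhe40 and Usp2.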

How the data were processed

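Expected counts, FPKM and TPM per gene for 6 mouse livers (3 WT, 3 iKO) were deposited by the authors in 1 table. RSEM 1.2.12, HISAT2 2.0.4, Bowtie2 2.2.5 and build mm9 are named, with no roles, per the submitters' processing notes; the deposited expected counts are RSEM estimates, of which 64.9% to 68.3% per library were whole. Columns not matched to a sample numbered 0. Expected counts were rounded and tested with edgeR 4.0.16 in R 4.3.3 (filterByExpr, TMM, robust quasi-likelihood F test, Benjamini-Hochberg over 13160 genes, threshold 0.05, no fold threshold). The authors' deposited TPM were used for comparisons between genes and the authors' deposited FPKM, log2 with pseudocounts of 1 and 0.1, as alternatives in limma 3.58.1, beside DESeq2 1.42.0. CPM are TMM-normalized, and likeness is Pearson's r of log2 CPM with a prior count of 1. SE is the log2 difference divided by the square root of F. The fit was tested on simulated counts. No 2 libraries of the same group agreed within sampling noise.

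All 10 genes are named; from each list, the called genes with the largest and smallest differences, at most 6; the 2 most alike genes of each; and tested neighbours. The result of 1 listed gene is not reported here. The genes and lists were chosen with earlier results of these data known. Promoters and neighbours are from RefSeq on GRCm38.p6 and coding bases from GENCODE vM21, not from mm9, and no coordinate was converted.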

Additional observations from a re-analysis of the deposited data

How the results depend on the processing

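Of the 10 genes, Dbp, Tef, Ciart, Usp2, Noct and Hlf kept their side of the threshold in all 16 alternatives, and no gene changed sign. Bhlhe40 lost its call in 7, Bhlhe41 in 2, and Nfil3 gained one in 1 and Wee1 in 2. With a pseudocount of 1 on FPKM, Ciart was at 3.80 and Bhlhe41 at 0.94, since a pseudocount shrinks low genes. The number of genes past the threshold was 2024; it was 1257 (404 higher, 853 lower) with limma on log2(FPKM + 1), 1251 (406 higher, 845 lower) with log2(FPKM + 0.1), 184 with a term for Y-linked reads and 143 in the libraries with such reads. Both FPKM scales moved the median of all genes, to -0.12 and -0.20. Leaving out 1 library gave 491 (without WT 2) to 1840 (without WT 1), with 908 without WT 3 and 946 without iKO 3. The core clock list had 5 genes past the threshold on either FPKM scale and 3 in either fit on Y-linked reads, and 5 (without iKO 1) to 9 (without iKO 3) with 1 library left out. The PAR bZIP target list had 4 with the Y-linked term and 3 in those libraries, and 6 to 11 with 1 library left out, the 11 without WT 1. The cause was not tested; by construction the left-out fits had fewer samples, and in both fits on Y-linked reads WT 1 is the only WT liver that bears on the group difference.

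With the replicate block 1710 genes passed the threshold. Whether the numbers pair the livers was not settled. Same-numbered deviations from the group mean correlated at 0.206, 0.212 and 0.0467, and differently numbered ones at -0.421 to 0.325. Deviations from a mean of 3 livers are tied to each other, so these values cannot decide it. Of the 10 genes 6 passed with the block, Bhlhe40 being the one lost. Counts of 4 to 12 in the WT libraries limit the precision of Ciart and Bhlhe41.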
